A study of Mus musculus with 141 samples.

Results

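The genes described here are 8 genes of the secretory cells that line the airways, out of 24423 genes in the tables: Scgb1a1, Scgb3a1, Scgb3a2, Cbr2, Cyp2f2, Bpifa1, Muc5b and Reg3g. They were chosen by symbol, as genes known for this cell type, and each was present in every table. Club cells are the secretory cells of the small airways. They release secretoglobins, small secreted proteins of which Scgb1a1 (club cell secretory protein) is the best known, and they carry enzymes that process inhaled chemicals. Cyp2f2, a cytochrome P450 that activates naphthalene, and Cbr2, a carbonyl reductase, belong to those enzymes. Other secretory cells, found mainly in the larger airways, make the mucus layer and its defence proteins. Muc5b is a gel-forming mucin, Bpifa1 a secreted protein of the upper airway surface, and Reg3g a secreted lectin that acts on bacteria. Scgb3a1 and Scgb3a2 are further airway secretoglobins.

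Expression was measured by RNA-seq of whole lung, liver and kidney from 1 male mouse of each of 47 Collaborative Cross (CC) strains, giving 47 libraries per tissue. The CC is a panel of recombinant inbred mice that descend from a shared set of founder strains. All mice were adults of 8 to 12 weeks on an NTP 2000 wafer diet and were kept in chambers that received clean air for 6 hours on each weekday over 2 weeks, so no group was treated and every mouse served as an untreated sample of its strain. With 1 mouse per strain, the strain, the mouse, the dissection and the library cannot be told apart, and in whole tissue fewer cells of a type and less RNA per cell cannot be told apart.

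Total counts ranged from 2829104 to 17585682 in lung, from 1738046 to 42158454 in liver and from 3046695 to 15028553 in kidney. A value of 3 counts or fewer was taken as not resolved, which is a median of 0.321 CPM in lung, 0.288 in liver and 0.364 in kidney and covers counting error only. CPM is the count relative to the size of the library after TMM (trimmed mean of M-values) scaling, and TPM is the length-corrected level that the authors deposited. The tissues were checked by defining markers, with a pooled level of Sftpc, a surfactant gene, of 3248 CPM in lung, of Alb, albumin, of 78125 CPM in liver and of Kap, a gene of the kidney tubule, of 15494 CPM in kidney, against 50.4 CPM of Alb and 12.7 CPM of Kap in lung. Some lung libraries stood apart by Krt4, a keratin of the squamous lining of the oesophagus. Its median over the lungs was 1.11 CPM, it exceeded 100 CPM in 18 of the 47 lungs, and it reached 1900 CPM in strain CC059. Some results below are also given without those 18 strains, and the part of this signal in the levels of the airway genes was not tested. Its rho with the 8 genes lay between -0.30 for Scgb1a1 (permutation p = 0.0408, r = -0.32, permutation p = 0.0302) and 0.18 for Reg3g (permutation p = 0.224, r = 0.12, permutation p = 0.413). Total counts had rho between -0.14 and 0.03 with the 8 genes.

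In lung, the levels of the 8 genes spanned 3 orders of magnitude. Scgb1a1 had a median of 61079 TPM, with a lowest value of 14835 and a highest of 134511, and ranked 2 among all genes by median lung TPM. It alone held a median of 6.11% of the TPM of a lung library and 13.5% in the highest library. Cbr2 followed with a median of 6199 TPM (1005 to 10571) at rank 9, and Cyp2f2 with 2361 TPM (579 to 4515) at rank 19. The other 5 genes were far lower. The median of Bpifa1 was 369 TPM (5.73 to 7071), that of Scgb3a2 88.5 TPM (17.5 to 342), that of Reg3g 71.4 TPM (4.05 to 659), that of Scgb3a1 48.6 TPM (2.87 to 185) and that of Muc5b 31.3 TPM (3.63 to 106). Together, the 8 genes held a median of 7.07% of lung TPM, with a range of 1.66% to 14.8%, and 1.36% of lung counts.

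Within libraries, each gene in this order was compared with the next by sign flips of the differences in log2(TPM + 1). All 7 neighbours differed at an adjusted p under 0.05, but the differences became less regular down the order. Scgb1a1 exceeded Cbr2, and Cbr2 exceeded Cyp2f2, in 47 of 47 libraries. Bpifa1 exceeded Scgb3a2 in 37 of 47 libraries, Scgb3a2 exceeded Reg3g in 33, and Scgb3a1 exceeded Muc5b in 35. The weakest step was Reg3g over Scgb3a1, which held in 28 of 47 libraries with a mean difference of 0.42 ± 1.23 (SD, n = 47) on the log2 scale (permutation p = 0.0247, adjusted over 7 comparisons 0.0247). It no longer passed without the 18 strains with high Krt4 (mean difference 0.20, permutation p = 0.388) or without the 5 libraries of fewest counts (0.37, permutation p = 0.0583), so this step was not separated beyond its spread under those settings. The order itself was read from these libraries. For Scgb3a1 and Scgb3a2 the tables name 2 transcripts each and for the other genes 1. Genes that name more than 1 transcript had a median lung level of 0.30 TPM over 6112 genes, against 3.26 TPM over the 18311 genes that name 1, and only uniquely aligned reads were counted. The part of this in the place of Scgb3a1 and Scgb3a2 in the order was not tested. None of the 8 genes shared a 50-base window of its coding transcripts with another gene.

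**Figure D1:**
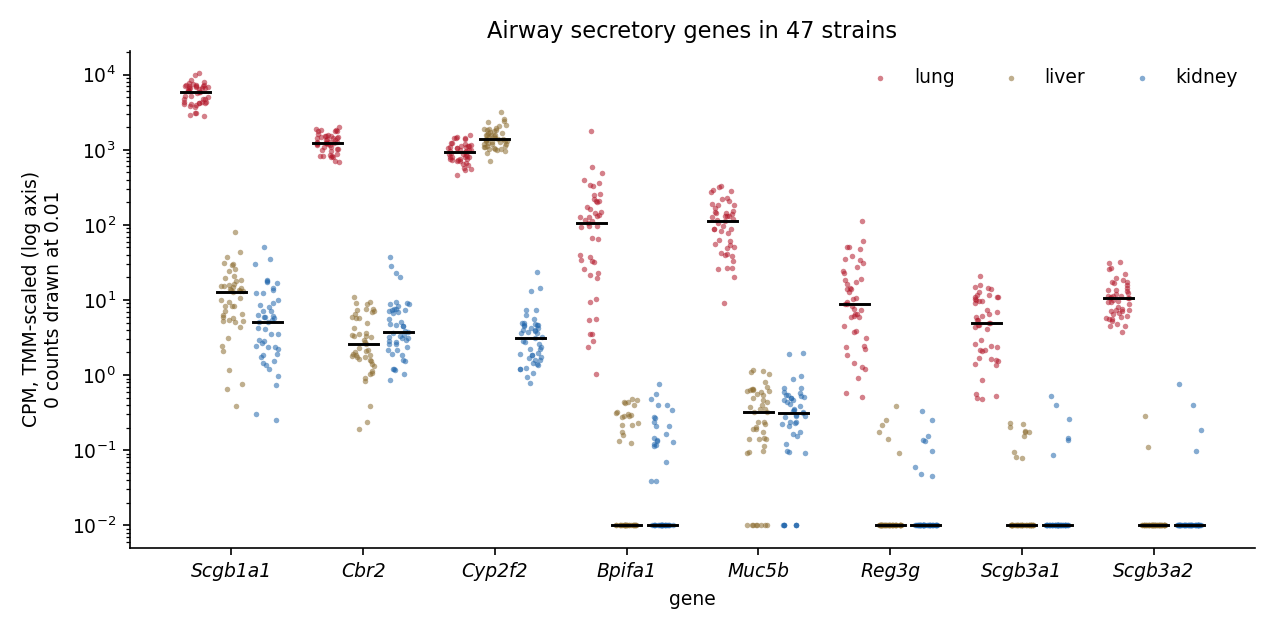
CPM of each gene (TMM-scaled, log axis) in lung, liver and kidney, with 1 point per strain and a bar at the median of 47 libraries. Scgb1a1, Cbr2 and Cyp2f2 lie in narrow bands in lung, Bpifa1 and Reg3g spread widely, and Cyp2f2 is the gene whose liver values lie at the height of its lung values.

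The 3 abundant genes varied less between strains than the other 5, and somewhat more than the median lung gene. Scgb1a1 ranged from 2841 CPM in CC059 through a median of 5973 CPM to 10430 CPM in CC029, which is 3.67 times from the lowest to the highest lung. Cbr2 ranged from 690 CPM in CC036 to 2029 CPM in CC019, with a median of 1247 CPM. Cyp2f2 ranged from 463 CPM in CC040 to 1579 CPM in CC019, with a median of 946 CPM. CC019 was thus the highest lung for both enzymes, while for Scgb1a1 it ranked 12. The standard deviations of log2 CPM were 0.46 for Scgb1a1, 0.42 for Cyp2f2 and 0.40 for Cbr2. The median over 11629 tested lung genes was 0.37, and 63.8%, 58.4% and 56.0% of those genes, respectively, had a smaller standard deviation.

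The genes of mucus and surface defence varied far more. Bpifa1 ranged from 1.05 CPM in CC006 through a median of 107 CPM to 1753 CPM in CC049, a 1672-fold range. Its standard deviation of log2 CPM was 2.39, and 99.8% of tested lung genes had a smaller one. Reg3g ranged from 0.51 CPM in CC006 through 8.82 CPM to 112 CPM in CC049, with a standard deviation of 1.81 that exceeded 99.3% of tested genes. The same mouse was thus lowest for both genes and another mouse highest for both.

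Muc5b ranged from 9.14 CPM in CC035 through 111 CPM to 331 CPM in CC005, with a standard deviation of log2 CPM of 1.17. Scgb3a1 ranged from 0.48 CPM in CC023 through 4.94 CPM to 21.1 CPM in CC049, with a standard deviation of 1.42. Its lowest values rested on few reads, since 2 lung libraries held 3 counts or fewer. Scgb3a2 was the steadiest of the low genes and ranged from 3.80 CPM in CC062 through 10.6 CPM to 31.9 CPM in CC037, with a standard deviation of 0.77. CC049 ranked 1 for Bpifa1, Reg3g and Scgb3a1 and 3 for Muc5b, and 8 for Cyp2f2, 17 for Cbr2 and 23 for Scgb1a1. CC035, at the other end, ranked 47 for Muc5b, 45 for Scgb3a1 and 44 for both Bpifa1 and Reg3g. By CPM, CC059 had the lowest Scgb1a1 of all lungs while it ranked 2 for Reg3g and 5 for Bpifa1. Its lung was also the one with the most Krt4 by CPM. All these places are by TMM-scaled CPM, and some differ by TPM. In TPM, Scgb1a1 was 17331 in CC059 against a lowest lung of 14835, and Krt4 was 2330 there against a highest of 3425. Muc5b was 61.5 TPM in CC005 against 106 TPM in CC038.

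The expression filter that the study used before eQTL mapping, a TMM-normalized TPM above 1 in over 50% of libraries and no single library set apart by a K-means split, kept 7 of the 8 genes in lung. Bpifa1 was dropped because 1 library formed a cluster of its own. In liver and in kidney the filter kept Scgb1a1, Cbr2 and Cyp2f2.

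Across the 47 lungs the genes fell into sets that moved together, a grouping noticed after the values were seen. Of the 28 pairs of the 8 genes, 13 had an absolute Spearman's rho of at least 0.4, against 2.28% of the 92996 pairs of one of these genes with a tested lung gene. The first set held Scgb1a1 and the 2 enzymes. Scgb1a1 and Cyp2f2 had a rho of 0.69 and a Pearson's r of 0.66 (permutation p = 1e-05 for both, the smallest that 100000 permutations can give, q = 0.00959). Leaving out the 2 strains most distant from the median of Scgb1a1 gave an r of 0.64. Scgb1a1 and Cbr2 had a rho of 0.61 and an r of 0.58 (permutation p = 2e-05 and 4e-05, q = 0.0128, r without 2 strains 0.51). Cbr2 and Cyp2f2 had a rho of 0.59 and an r of 0.61 (permutation p = 4e-05 and 1e-05, q = 0.0187, r without 2 strains 0.59). For every pair of one of the 8 with a single lung gene, q is adjusted by Benjamini-Hochberg over all 92996 pairs.

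The second set held Reg3g, Scgb3a1, Muc5b and Bpifa1, whose 6 pairs had rho between 0.60 and 0.77. The closest pair was Scgb3a1 and Reg3g, with a rho of 0.77 and an r of 0.73 (permutation p = 1e-05 for both, q = 0.00959, r without 2 strains 0.73). Reg3g also followed Muc5b (rho 0.73, r 0.75, permutation p = 1e-05 for both, q = 0.00959, r without 2 strains 0.73) and Bpifa1 (rho 0.72, r 0.79, permutation p = 1e-05 for both, q = 0.00959, r without 2 strains 0.77). The loosest was Scgb3a1 and Bpifa1, with a rho of 0.60 and an r of 0.71 (permutation p = 2e-05 and 1e-05, q = 0.0128, r without 2 strains 0.64). Without CC049, the highest lung for 3 of these genes, Scgb3a1 and Bpifa1 still had a rho of 0.57, and 12 of 28 pairs reached 0.4.

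Scgb3a2 lay with the second set more than with the first. Its rho with Scgb3a1, its relative by sequence family, was 0.58 (r = 0.58, permutation p = 4e-05 for both, q = 0.0187, r without 2 strains 0.56). With Reg3g, Muc5b and Bpifa1 its rho was 0.44, 0.43 and 0.40, which did not pass after adjustment (q = 0.163, 0.177 and 0.249). With Bpifa1 it fell to 0.36 without the strains with high Krt4 and to 0.37 without CC049.

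Between the sets there was little relation. The 12 pairs of Scgb1a1, Cbr2 or Cyp2f2 with Reg3g, Scgb3a1, Muc5b or Bpifa1 had rho from -0.21 for Cbr2 and Reg3g (r = -0.21, permutation p = 0.152 and 0.151, q = 0.716) to 0.21 for Cyp2f2 and Bpifa1 (r = 0.17, permutation p = 0.163 and 0.262, q = 0.728). The most abundant gene, Scgb1a1, and Scgb3a1 had a rho of -0.01 (r = 0.01, permutation p = 0.969 and 0.928, q = 0.996). This separation depended on scaling. With counts divided by library totals, 22 of 28 pairs reached 0.4 and Cyp2f2 and Muc5b had a rho of 0.51, and with log2(TPM + 1) 16 pairs did, the added ones being those of Scgb3a2 with Scgb1a1 (0.50), Cyp2f2 (0.60) and Cbr2 (0.42). With TMM computed over the lungs alone the count was 13, and without the 18 strains with high Krt4 it was 12.

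**Figure D2:**
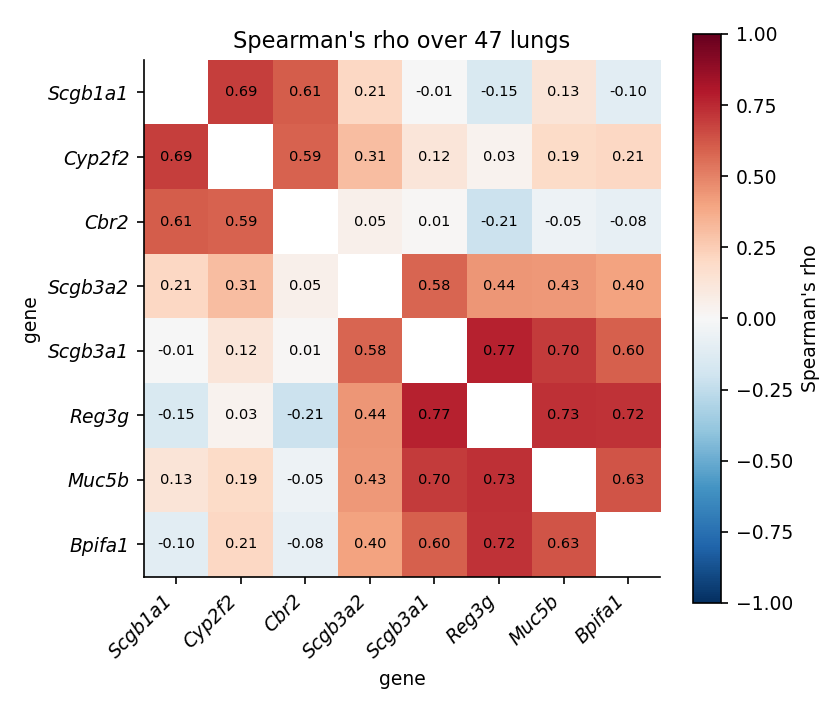
Spearman's rho of log2 CPM between each pair of the 8 genes over 47 lungs, with the value in each square and the color scale from -1 to 1. The squares of Scgb1a1, Cyp2f2 and Cbr2 (0.59 to 0.69) and of Scgb3a1, Reg3g, Muc5b and Bpifa1 (0.60 to 0.77) form 2 blocks with values near 0 between them.

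**Figure D3:**
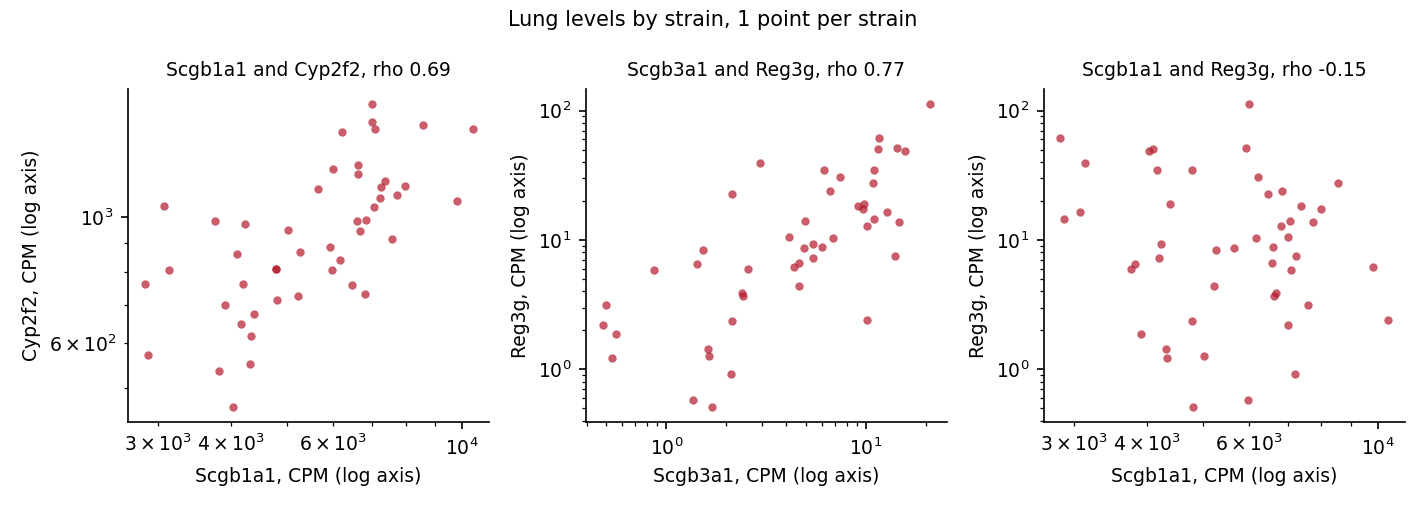
Lung CPM of 2 genes per panel on log axes, with 1 point per strain. Cyp2f2 rises with Scgb1a1 (rho 0.69) and Reg3g rises with Scgb3a1 (rho 0.77), while Reg3g shows no trend with Scgb1a1 (rho -0.15).

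Promoters of the genes in these sets are shown because the genes moved together. The RefSeq sequences (GRCm38.p6, from 250 bases before to 50 after the start site) were available for Scgb3a1, Cbr2, Cyp2f2, Bpifa1 and Reg3g, and the 3 others, Scgb1a1, Scgb3a2 and Muc5b, are named only. A site core of NKX2 factors was searched on both strands as CAAGTG. The letters searched for FOXA factors, also on both strands, were TGTTTAC. For CEBP factors they were TTGCGCAA and for STAT factors TTCNNNGAA, each on both strands. The TATA box was searched on the gene's strand alone as TATAAA. Matches of different motifs did not overlap in these windows. Capitals mark matches, and the strand given is that of the gene.
Bpifa1, chr2:154142630-154142929, plus strand: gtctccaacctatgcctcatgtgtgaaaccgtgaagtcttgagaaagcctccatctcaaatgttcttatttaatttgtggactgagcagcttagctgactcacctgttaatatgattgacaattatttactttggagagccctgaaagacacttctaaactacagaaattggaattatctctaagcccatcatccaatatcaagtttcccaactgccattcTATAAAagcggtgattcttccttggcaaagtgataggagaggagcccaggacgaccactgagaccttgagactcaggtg
Reg3g, chr6:78468825-78469124, minus strand: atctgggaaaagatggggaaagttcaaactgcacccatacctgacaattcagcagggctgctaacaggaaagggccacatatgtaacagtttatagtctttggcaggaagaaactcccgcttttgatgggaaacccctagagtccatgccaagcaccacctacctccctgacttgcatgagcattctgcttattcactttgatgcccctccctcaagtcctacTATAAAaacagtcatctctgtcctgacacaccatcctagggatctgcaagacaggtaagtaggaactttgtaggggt
Scgb3a1, chr11:49663345-49663644, plus strand: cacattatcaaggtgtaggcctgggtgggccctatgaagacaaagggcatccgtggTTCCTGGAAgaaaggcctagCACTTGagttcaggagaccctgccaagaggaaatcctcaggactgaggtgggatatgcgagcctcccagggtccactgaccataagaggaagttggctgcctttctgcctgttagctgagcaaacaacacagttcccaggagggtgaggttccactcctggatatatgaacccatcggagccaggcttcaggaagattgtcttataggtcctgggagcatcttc
Cyp2f2, chr7:27119705-27120004, plus strand: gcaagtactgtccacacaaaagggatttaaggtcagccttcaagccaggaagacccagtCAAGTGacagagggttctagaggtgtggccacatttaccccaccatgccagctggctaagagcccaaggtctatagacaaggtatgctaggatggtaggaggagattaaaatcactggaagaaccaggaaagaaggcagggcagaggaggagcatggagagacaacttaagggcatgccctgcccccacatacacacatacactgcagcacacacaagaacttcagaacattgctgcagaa
TATAAA stood 29 bases before the start site in Bpifa1 and 27 bases before it in Reg3g, and 8.32% of 32851 promoters of this length held it. CAAGTG was found in Cyp2f2 and, on the opposite strand, in Scgb3a1, against 13.6% of all promoters. TTCNNNGAA was found in Scgb3a1 alone among the 5, against 8.30% of all promoters. The FOXA letters (in 3.65% of all promoters) and the CEBP letters (0.183%) had no match among the 5. A match describes these letters and is not evidence of a bound factor.

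The lung genes whose levels were most like each of the 8 differed between the sets. Scgb1a1 was followed most closely by Cckar (rho 0.77), a receptor for cholecystokinin, by 5330417C22Rik (0.71) and by Ttll6 (0.70), a tubulin-modifying enzyme of cilia. Genes close to Cyp2f2 included Scgb1a1 (0.69) and 5330417C22Rik (0.68). Cbr2 was followed by Por (0.79), the reductase that passes electrons to P450 enzymes, by Sgsm3 (0.74) and by Rac3, a small GTPase (0.72). All of these had a permutation p of 1e-05 (q = 0.00959) over 47 lungs, and r without the 2 farthest strains was between 0.64 and 0.74. Of the 11629 tested genes, 429 had a rho of at least 0.4 with Cbr2, 318 with Scgb1a1 and 198 with Cyp2f2.

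The genes most like the second set included 4 of the goblet and mucosal defence list described below, namely Muc5ac, Ltf, Tff2 and Fcgbp. Slc5a8, a solute transporter of epithelia, ranked 1 for Bpifa1 (rho 0.75) and Reg3g (0.77) and 3 for Muc5b (0.72). Muc5ac, the other main gel-forming mucin of the airway, ranked 1 for Muc5b (0.75). Ltf (lactotransferrin, an iron-binding defence protein) ranked 3 for Bpifa1 (0.69), Tff2 (a trefoil peptide of mucus) ranked 3 for Scgb3a1 (0.67), and Fcgbp (a mucus protein) ranked 3 for Reg3g (0.76). Scgb3a2 had lower values throughout, with Scgb3a1 (0.58), Ilf2 (0.56) and Cdc26 (0.55) at the top. The genes outside the 8 named here for Bpifa1, Muc5b, Reg3g and Scgb3a1 had permutation p = 1e-05 (q = 0.00959), and those for Scgb3a2 q between 0.0187 and 0.0281.

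Some of these genes are neighbours on the chromosome (NCBIM37, GENCODE vM1), and rho is given for neighbours as a description. Cbr2 lies at chr11:120590803-120593428 on the minus strand. Dcxr, Rac3 and Lrrc45 are the next 3 genes on its lower side, 2208, 5520 and 8361 bases away, and had rho of 0.71, 0.72 and 0.62 with it. On the other side, the nearest gene with a value, Rfng at 48632 bases, had a rho of 0.04. Muc5b lies at chr7:149024975-149058990 on the plus strand, and Muc5ac is the next gene at a distance of 19839 bases with a rho of 0.75, while Tollip on the other side, 1728 bases away, had a rho of 0.03. Bpifa1 lies at chr2:153968616-153974955 within a run of Bpif genes, of which Bpifb1, 41599 bases away, had a rho of 0.52 and Bpifb5 0.16. Cyp2f2 lies at chr7:27904928-27918679 and had rho between -0.08 and 0.29 with its 6 nearest genes. The other genes lie at chr19:9158126-9162448 (Scgb1a1, minus strand), chr11:49477112-49478620 (Scgb3a1, plus strand), chr18:43923979-43927047 (Scgb3a2, plus strand) and chr6:78416262-78418868 (Reg3g, minus strand). Spink5, a protease inhibitor gene 195842 bases from Scgb3a2, had a rho of -0.48 with it. Reads from neighbours cannot be separated by strand here, since the strandedness of the counts is not given in the sources used here.

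Lists of genes known for other airway and lung cells were set beside the 8 genes. Of 96 combinations of a gene with the mean log2 CPM of a list, 17 had an absolute rho of at least 0.4, against 3.77% of 139465 combinations of a list with a tested gene, over which the q of a list mean is adjusted. The count was 55 under library totals, 36 under log2(TPM + 1) and 27 without the 18 strains with high Krt4. The combinations added under these settings are not named here. The lists overlap in function with the 8 genes and were chosen with earlier results of these data known. The goblet and mucosal defence list, of which 23 of 25 genes were in the tables, went with Reg3g (rho 0.80, r 0.76), Muc5b (0.77, 0.73) and Scgb3a1 (0.71, 0.64) at a permutation p of 1e-05 each (q = 0.00264, r without 2 strains 0.73, 0.71 and 0.59). With Bpifa1 its rho was 0.60 (r = 0.55, permutation p = 4e-05 and 8e-05, q = 0.00705, r without 2 strains 0.54). Of the 14 genes of that list tested in lung, 8 had a rho of at least 0.4 with Muc5b, 7 with Reg3g, 7 with Scgb3a1, 3 with Bpifa1 and 0 with Scgb1a1. Fcgbp (0.76 with Reg3g), Muc5ac (0.75 with Muc5b) and Agr2, a protein-folding factor of mucin-making cells (0.65 with Reg3g and 0.64 with Muc5b), were among them.

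The list of 20 other club cell genes had a rho of at least 0.4 with the first set, Scgb3a2, Scgb3a1 and Muc5b. The gaps between the values of the 8 genes were not tested. With Muc5b the rho of the list was 0.47 (permutation p = 0.00124, q = 0.0671). With Bpifa1 and Reg3g it was 0.39 each, under 0.4 (q = 0.176 for both). The rho of the list was 0.61 with Scgb3a2 (r = 0.57, permutation p = 1e-05 and 3e-05, q = 0.00264, r without 2 strains 0.57), 0.54 with Cyp2f2 (r = 0.59, permutation p = 0.00012 and 2e-05, q = 0.0154, r without 2 strains 0.55) and 0.50 with each of Scgb1a1, Cbr2 and Scgb3a1 (q between 0.0313 and 0.0354). By single genes, 9 of the 18 tested genes of the list had a rho of at least 0.4 with Cyp2f2, 5 with Scgb1a1, 5 with Cbr2, 4 with Bpifa1, 3 with Muc5b, 3 with Reg3g, 2 with Scgb3a1 and 2 with Scgb3a2, and the differences between these counts were not tested. No gene of the list fell to -0.4 or below with any of the 8.

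Markers of ciliated cells, the other main cell of the airway lining, went with Scgb1a1 (rho 0.50, r 0.49, permutation p = 0.00052 and 0.00059, q = 0.0397, r without 2 strains 0.40). With Cbr2, Muc5b and Cyp2f2 their rho was 0.42, 0.41 and 0.41 (q = 0.113, 0.122 and 0.135), which did not pass after adjustment, and under TMM over the lungs alone all 3 were just under the threshold. Without the strains with high Krt4 the rho was 0.31 for Cyp2f2 and 0.39 for Muc5b. The summed level of the 10 ciliated markers ranged from 276 to 736 CPM with a median of 431, and none had a median of 0. Markers of alveolar type 2 cells, the surfactant-making cells of the air sacs, had rho between -0.22 and 0.27 with the 8 genes, with a summed level of 4957 to 11027 CPM over 9 genes, none with a median of 0. Airway cartilage markers, of which 3 of 6 had a median of 0, summed to 7.47 to 61.1 CPM and had a rho of 0.45 with Bpifa1 (r = 0.48, permutation p = 0.00175 and 0.0006, q = 0.0814, r without 2 strains 0.39). Only 1 of the 6, Cytl1, had enough counts to be tested by itself, and its rho with Bpifa1 was 0.11. The rho of the list mean thus leaned on genes near the floor. The part of the ciliated, alveolar and cartilage markers in the levels of the 8 genes was not tested.

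Among 14 known regulators of airway epithelium, 11 were tested in lung. The list mean had a rho of 0.49 with Muc5b (r = 0.43, permutation p = 0.00051 and 0.00231, q = 0.0393, r without 2 strains 0.40) and of 0.42 with Bpifa1 (r = 0.38, permutation p = 0.00387 and 0.00904, q = 0.124, r without 2 strains 0.47). Sox2, a transcription factor of the conducting airway, had a rho of 0.55 with Muc5b (r = 0.53, permutation p = 9e-05 and 0.00011, q = 0.0297, r without 2 strains 0.61). Notch1 had a rho of -0.41 with Muc5b (r = -0.39, permutation p = 0.00462 and 0.00766, q = 0.23, r without 2 strains -0.35). With Scgb1a1 and Cyp2f2, 1 regulator each reached 0.4, and with Cbr2, Scgb3a1 and Scgb3a2 none did. The remaining lists gave no absolute rho of 0.4. It lay between -0.30 and 0.03 for alveolar type 1 markers, between -0.31 and 0.32 for basal cell markers and between -0.10 and 0.28 for markers of neuroendocrine, tuft and ionocyte cells. It lay between -0.31 and 0.20 for thyroid and oesophagus markers and between -0.20 and 0.02 for hepatocyte and proximal tubule markers. Genes of neutrophils and type 2 inflammation had rho between -0.02 and 0.14 with the 8 genes, with a summed level of 7.93 to 1523 CPM.

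**Figure D4:**
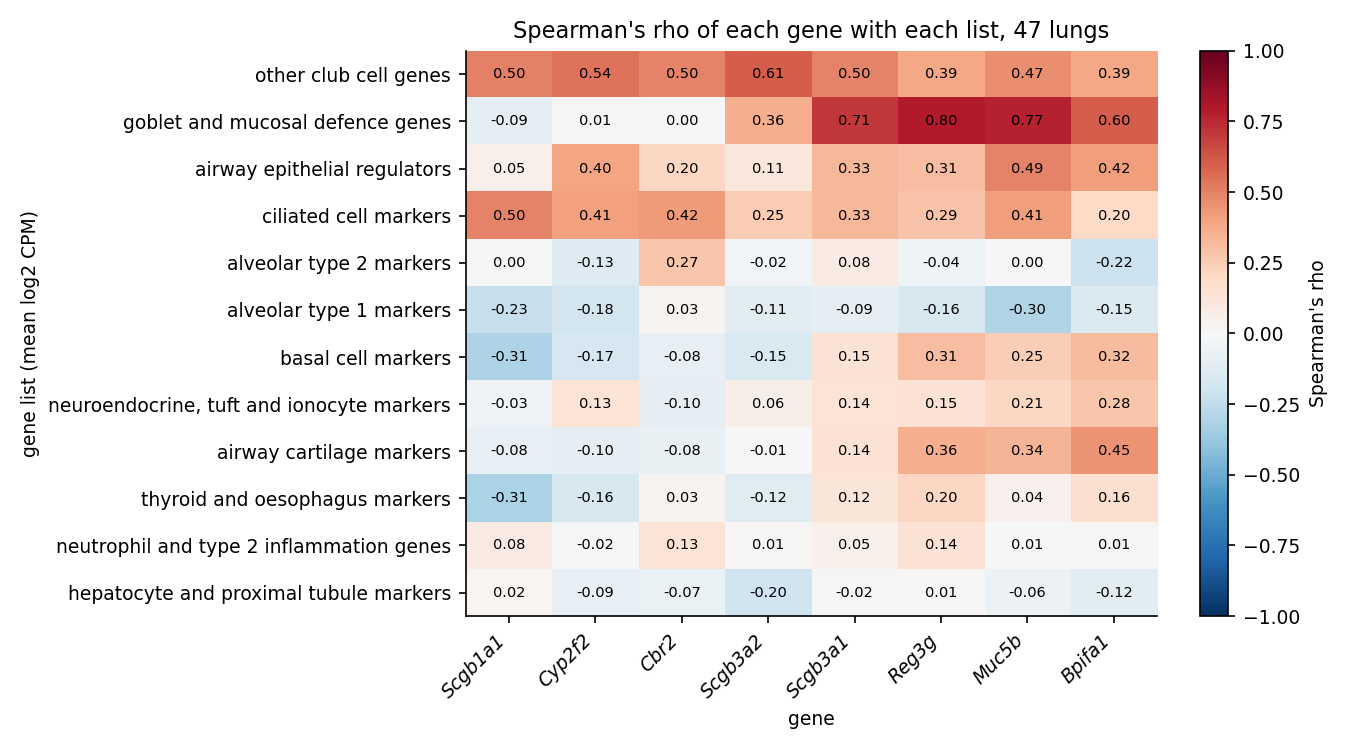
Spearman's rho over 47 lungs between each of the 8 genes (columns) and the mean log2 CPM of each gene list (rows), with the value in each square. The goblet and mucosal defence row is high for Scgb3a1, Reg3g, Muc5b and Bpifa1 (0.60 to 0.80) and near 0 for Scgb1a1, Cyp2f2 and Cbr2.

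Between tissues, 7 of the 8 genes were found almost wholly in lung, and Cyp2f2 was abundant in both lung and liver. Under a filter of more than 1 CPM in at least 30% of libraries, 7 of the 8 were tested and Scgb3a1 was not. Bpifa1, Reg3g and Scgb3a2 had a median of 0 counts in liver and kidney, and Muc5b a median of 1 count in liver and 3 in kidney. These 4 passed through their lung libraries, so a tissue difference was built into their test, and nothing is read from counts that include them. Scgb1a1, Cbr2 and Cyp2f2 are the others tested. At q of at most 0.1 and a log2 fold change of 1 or more in size, 6 of the 7 were higher in lung than liver, against 31.2% of 12127 tested genes, and 7 of 7 were higher in lung than kidney, against 24.6%. The former are Scgb1a1, Cbr2 and the 4 genes with a difference built in, and the latter add Cyp2f2. None was lower in lung at that threshold, against 23.7% and 21.7% of tested genes.

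Scgb1a1 had a median of 12.7 CPM in liver (0.386 to 79.3) and of 5.16 CPM in kidney (0.249 to 50.5), against 5973 CPM in lung, and no liver or kidney library reached the lowest lung. Its log2 fold change was 9.25 ± 0.16 (SE) over liver (limma-voom adjusted p = 1.77e-75) and 10.17 ± 0.17 over kidney (limma-voom adjusted p = 5.15e-78), higher in lung in 47 of 47 strains. Cbr2 had a median of 2.62 CPM in liver (0.193 to 11) and of 3.74 CPM in kidney (0.872 to 37.9), against 1247 CPM in lung. Its log2 fold change was 8.95 ± 0.14 over liver (limma-voom adjusted p = 8.64e-79) and 8.12 ± 0.13 over kidney (limma-voom adjusted p = 6.80e-78), again in 47 of 47 strains and with no overlap.

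The low genes were close to absent outside lung. Muc5b held a total of 113 counts over the 47 livers and 154 over the 47 kidneys, against 78316 over the lungs, which is 322-fold (95% counting interval 268 to 391) and 350-fold (299 to 413) lower in CPM than in lung. Bpifa1 held 38 and 42 counts against 115941, a ratio of 1419 (1034 to 2005) and 1901 (1407 to 2638). Reg3g held 10 and 17 counts against 10836, Scgb3a1 11 and 10 against 4199, and Scgb3a2 3 and 5 against 8523. The ratio of Scgb3a2 was 1321 over liver (452 to 6407) and 1174 over kidney (503 to 3616). Each of these genes was higher in lung in 47 of 47 strains, and only for Scgb3a1 against kidney did the ranges touch, where the highest kidney (0.533 CPM) exceeded the lowest lung (0.479 CPM). The share of all genes with ranges apart is not given here. For these genes, as for Scgb1a1 and Cbr2, the lack of overlap is therefore a description. The counting intervals cover counting error only.

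Cyp2f2 stood apart from the rest. In liver it ranged from 706 CPM in CC016 through a median of 1400 CPM to 3234 CPM in CC010, while in kidney its median was 3.14 CPM (0.772 to 23.4). Liver and lung values overlapped widely, and lung was the higher in 6 of 47 strains. The log2 fold change of lung over liver was -0.65 ± 0.08 (SE, limma-voom adjusted p = 4.48e-12), short of the threshold on size, and that of liver over kidney was 8.99 ± 0.10 (limma-voom adjusted p = 1.59e-94). Its direction between lung and liver turned with the scaling. With counts divided by library totals it was 0.70 (limma-voom adjusted p = 8.9e-05), and with log2(TPM + 1) it was 0.82 (limma adjusted p = 3.11e-08). Under these 2 scalings the median of all tested genes was itself 1.43 and 1.21 for lung against liver, against 0.07 with TMM, so that relative to the median gene Cyp2f2 was lower in lung under each of the 3. Between liver and kidney, Cyp2f2 was the 1 gene of the 7 past the threshold and was higher in liver, against 14.7% of tested genes. Scgb1a1 (0.92 ± 0.17, adjusted p = 4.16e-07 by limma-voom) and Cbr2 (-0.82 ± 0.14, adjusted p = 1.19e-07 by limma-voom) differed there by less than the threshold on size.

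The trace of Scgb1a1 in liver and kidney stood at shares of lung near those of several alveolar genes, while the other airway genes spread more widely. Summed over libraries, Scgb1a1 in liver came to 0.186% of its lung level (95% counting interval 0.180% to 0.192%) and in kidney to 0.103% (0.0993% to 0.107%). The surfactant gene Sftpc came to 0.229% (0.219% to 0.238%) and 0.129% (0.123% to 0.134%), with intervals above those of Scgb1a1. The alveolar type 2 genes Cxcl15 and Lamp3 came to 0.180% and 0.112% and to 0.225% and 0.121%. In liver, Sftpa1, Sftpd and Slc34a2 stood higher, at 0.531%, 0.582% and 0.831%. Cbr2 came to 0.225% in liver and 0.405% in kidney. Bpifa1 was lower at 0.0705% (0.0499% to 0.0967%) in liver and 0.0526% (0.0379% to 0.0711%) in kidney. Of its 115941 lung counts, 25866 came from CC049. Reg3g came to 0.198% and 0.228%, Muc5b to 0.310% and 0.286%, Scgb3a1 to 0.563% and 0.346%, and Scgb3a2 to 0.0757% and 0.0852%. Cyp2f2 in kidney came to 0.324%. Of the 9 alveolar type 2 markers, 7 lay between 0.180% and 0.831% in liver and between 0.110% and 0.822% in kidney. Abca3 (59.3% and 165%) and Napsa (3.24% and 1220%) stood far above that.

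**Figure D5:**
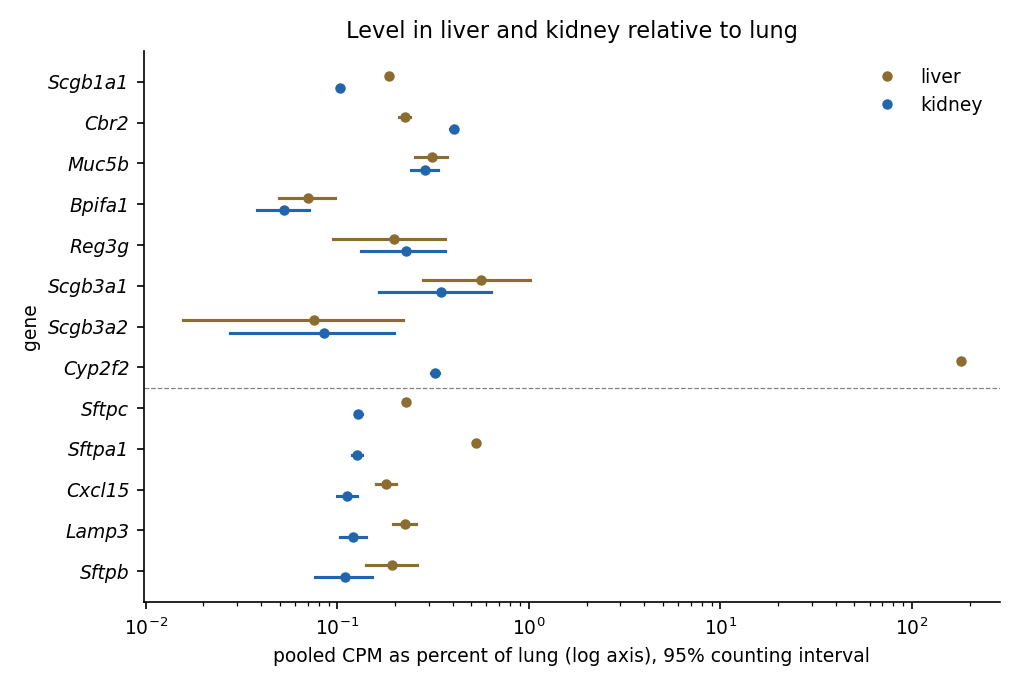
Level in liver and kidney as a percent of the pooled lung CPM (log axis) with 95% counting intervals, for the 8 genes above the dashed line and 5 alveolar type 2 genes below it. Scgb1a1 in liver (0.186%) and kidney (0.103%) lies a little below Sftpc (0.229% and 0.129%), and Cyp2f2 in liver lies at 179% of lung.

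Across strains the trace of Scgb1a1 went with those of several lung genes, though not with all of them. The genes set beside the traces were chosen after their values were seen, so their relations over 47 strains are given as a description, with no test. In liver, Scgb1a1 had a rho of 0.89 with Sftpc (r = 0.92), of 0.88 with Sec14l3 (r = 0.89) and of 0.87 with Cbr2 (r = 0.89), with r of 0.84 to 0.89 without the 2 farthest strains. In lung, where both genes are abundant, Scgb1a1 and Sftpc had a rho of 0.32 (r = 0.21, r without 2 strains 0.19). In kidney, Scgb1a1 had a rho of 0.91 with Sftpc (r = 0.93, r without 2 strains 0.92), of 0.89 with Sftpa1 (r = 0.91, r without 2 strains 0.89) and of 0.62 with Cbr2 (r = 0.54, r without 2 strains 0.61). Others were weaker. Scgb1a1 had a rho of 0.51 with Sftpa1 in liver (r = 0.55, r without 2 strains 0.48) and of 0.05 with Sec14l3 in kidney (r = -0.03, r without 2 strains 0.16). In all, 72 such relations were computed for Scgb1a1, Cbr2 and Cyp2f2 with 8 genes each in 3 tissues. They use TMM scaling, and no other scaling is given for them here. The liver with the highest Scgb1a1, CC033 at 79.3 CPM, held 51 counts of it, against a median of 61 counts over the livers.

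Cyp2f2 in kidney went both with lung genes and with liver genes. Its rho was 0.60 with Sftpa1 (r = 0.68, r without 2 strains 0.58) and 0.57 with Alb (r = 0.63, r without 2 strains 0.55). Its 3 most alike kidney genes were Ambp (0.64), Mup20 (0.60) and Mug1 (0.60), all of them genes that hepatocytes secrete the products of. In liver, where it is abundant, Cyp2f2 had a rho of -0.07 with Sftpc, and its most alike genes were BC021767 (0.65), Echdc2 (0.62) and Ugt2b5 (0.58). The source of the traces was not tested.

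The levels of the same gene in 2 tissues of a strain were also compared. Of the 9 relations of Scgb1a1, Cbr2 and Cyp2f2 between 2 tissues, which were the ones with resolved counts, 0 had an absolute rho of at least 0.4, against 11.3% of 25981 such relations over all tested genes, over which q is adjusted here. With 9 relations this count is near that share. For Scgb1a1 and Cbr2 the liver and kidney values are the traces described above. The largest was that of Cyp2f2 in lung and liver, with a rho of 0.31 (r = 0.30, permutation p = 0.033 and 0.0385, q = 0.156, r without 2 strains 0.34). It rested on the scaling, with a rho of -0.04 under library totals and -0.00 under log2(TPM + 1), and it was 0.40 without the 18 strains with high Krt4. Scgb1a1 had a rho of 0.10 between lung and liver and of 0.09 between lung and kidney, and Cbr2 of -0.11 and 0.06 (q between 0.701 and 0.848).

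Other genes of these cells were compared in the same fit. Those that exceed 1 CPM mainly in lung passed the filter through lung, so a lung difference was built into their test, and the counts below are a description. Of the 20 other club cell genes, 19 were tested between lung and liver. Of these, 9 were higher in lung and 8 higher in liver, against 31.2% and 23.7% of all tested genes. The median log2 fold change of the 19 was 0.54, against 0.07 over all tested genes. Lypd2 (6.65), Cyp2s1 (6.15) and Retnla (6.11) differed most toward lung on the log2 scale. Lypd2 and Retnla had a median of 0 counts in liver and Cyp2s1 of 4, so no p-value is given for them. Pon1, a plasma esterase (-4.64), Sult1d1, a sulfotransferase (-3.67), and Gsta3, a glutathione transferase (-3.14), named after their values were seen, were higher in liver (adjusted p of 2.19e-41 at most by limma-voom). Against kidney, 13 of the 19 were higher in lung and 3 lower, against 24.6% and 21.7% of all tested genes.

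Of the 12 tested goblet and mucosal defence genes, 9 were higher in lung than liver and 2 lower, against 31.2% and 23.7% of all tested genes. The median log2 fold change of the 12 was 3.69. The largest changes were Foxa3, a liver-rich transcription factor (-7.59), and toward lung Muc4, a membrane mucin (6.64), and Ltf (6.53). Muc4 and Ltf had a median of 1 count in liver and Foxa3 of 3 in lung. A difference was thus built into their tests, and no p-value is given. Of 11 tested airway regulators, 9 were higher in lung and 1 lower, against 31.2% and 23.7% of all tested genes. The regulators were led by Sox2 (6.10), Klf5 (5.54) and Grhl2 (5.46), a factor of epithelial junctions. In liver, Sox2 and Klf5 had a median of 0 counts and Grhl2 of 3, which is not resolved, so no p-value is given. Of the ciliated cell markers, 9 were tested and 9 were higher in lung than liver, against 31.2% of all tested genes. The difference was built in for those such as Hydin, Sntn and Dynlrb2 with a median of 0 counts in liver. The list was led by Hydin (8.42) and Dnah9 (7.47), parts of the moving cilium, and by Tppp3 (7.26). Their median liver counts were 0, 2 and 4, so no p-value is given.

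The families of 6 of the 8 genes were examined, not those of Cbr2 and Cyp2f2. Of 30 secretoglobin genes in the tables, 4 had a lung median above 3 counts, namely Scgb1a1, Scgb3a1, Scgb3a2 and Scgb1c1 (26.6 TPM). Of 14 Bpif genes, 3 did, and Bpifa1 at 369 TPM was followed by Bpifb5 at 4.84 TPM and Bpifb1 at 0.88 TPM. Of 7 Reg genes, Reg3g was the 1 above 3 counts. Of the 5 gel-forming mucin genes, 4 were above it, with Muc5b at 31.3 TPM, Muc5ac at 1.19 TPM, Muc6 at 1.17 TPM and Muc2 at 0.30 TPM. In liver and kidney, Scgb1a1 was the 1 secretoglobin and no Bpif or Reg gene was above it, and of the mucins Muc6 was above it in kidney.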

How the data were processed

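Lung, liver and kidney of 47 CC strains, 1 male mouse each, were sequenced as ribosome-depleted total RNA. The authors filtered reads by quality and adapter content, aligned them with STAR (2.5.3a per the submitters' processing notes, which also name RSEM and mm9) to pseudo-genomes made for each strain, and quantified them with RSEM. The expected count deposited for each gene is on the scale of uniquely aligned reads, and 25 of all values differed from the nearest whole number, with no tolerance. The TPM deposited by the authors are scaled by transcript length and library. The FPKM column was not used here. The paper fitted sequencing batch in its models. No batch is among the labels, so no batch term was used here, and batch and strain cannot be told apart in these results.

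After rounding, counts were scaled by TMM (edgeR 4.0.16). Tissues were compared with limma-voom (limma 3.58.1, R 4.3.3) over genes above 1 CPM in 30% or more of the 141 libraries. Strain was the replicate block, since the 3 tissues of a strain come from 1 mouse. A call needed a Benjamini-Hochberg q of at most 0.1 and a log2 fold change of 1 or more in size. On simulated lung and liver data of 12127 genes this step recovered 200 of 200 changed genes with 0 false calls. Correlations used log2 CPM (prior count 1) over 47 strains, genes with a median of at least 10 counts, and 100000 two-sided permutations in Python 3.11.15 with numpy 2.4.6, scipy 1.17.1, pandas 2.3.3 and numba 0.67.0. Figures used matplotlib 3.10.9. The design named adjustment over the pairs of the 8 genes alone, and adjustment over all genes tested was used in its place. P-values measure only the spread between these mice.

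The 8 genes, the 12 gene lists and the tests were chosen with earlier results of these data known. Besides the 8, the genes named are the 3 most alike in lung for each (1 of them is not reported here), the 3 of each list with the largest change from liver, markers of other cells and family members. The chromosomal neighbours, the genes set beside the traces in liver and kidney, and the list genes named by rho were chosen after their values were seen. Alternatives were DESeq2 1.42.0 (test and size factors), edgeR's quasi-likelihood test, library totals, log2(TPM + 1) and log2(TPM + 0.1), no low-count filter, no replicate block, only the 2 tissues compared, q of at most 0.01, Pearson's r and leaving out the 5 libraries of fewest counts per tissue. Leaving out CC049 or the 18 strains with high Krt4, and TMM over the lungs alone, were added after seeing the data.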

Additional observations from a re-analysis of the deposited data

How the results depend on the processing

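The numbers of the 8 genes past the threshold between lung and liver (6) and lung and kidney (7) stayed within 6 to 7 and 7 to 8 under each alternative. The eighth gene is Scgb3a1, tested without a low-count filter or with only the 2 tissues compared. Bpifa1, Muc5b, Reg3g and Scgb3a2 passed the filter through lung, and Scgb3a1 had a median of 0 counts in liver and kidney. For these genes the steadiness was built in, and nothing is read from it. Without the replicate block the counts were 6, 7 and, for liver against kidney, 1, as with it, and it changed no call of the 8 genes. For liver against kidney the count rose from 1 to 2 under library totals, log2(TPM + 1), log2(TPM + 0.1), only the 2 tissues compared, DESeq2 and without the strains with high Krt4, where Cbr2 or Scgb1a1 passed the threshold on size. Cyp2f2 turned from -0.65 between lung and liver to 0.70 under library totals, 0.82 under log2(TPM + 1) and 0.82 under log2(TPM + 0.1). Pairs of the 8 genes with an absolute rho of at least 0.4 rose from 13 to 22 under library totals. Combinations with marker lists rose from 17 to 55 under library totals, 36 under log2(TPM + 1) and 27 without the strains with high Krt4. Relations between tissues went from 0 to 2 without those strains, for Cyp2f2 in lung and liver (0.40) and for Reg3g in lung and kidney (-0.41), the latter resting on unresolved kidney counts. The cause of these shifts was not tested. Of the values of single genes, pairs and combinations, 677 kept their direction and side, 20 became stronger, 14 weaker and 3 reversed, those of Cyp2f2 above. Depth limits Scgb3a1, Scgb3a2, Bpifa1, Reg3g and Muc5b in liver and kidney, where most libraries held 3 counts or fewer.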
